A study of Danio rerio with 24 samples.

Results

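In livers of male zebrafish, 9 of the 32105 genes in the Ensembl count table were selected on their counts in the F1 libraries, where they differed sharply between the diet groups: zgc:162154, ccdc90b, si:ch211-264f5.2, si:dkey-254e1.1, zgc:174904, si:ch211-194p6.12, sh3bgrl, crlf3 and lxn. Since the F1 counts chose these genes, their F1 values are given as a description and without a test. The rule of choice did not use the 12 F0 libraries, although earlier results of these data were known when the genes were chosen. The diet difference was tested in these F0 libraries.

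All fish were of the wildtype AB strain. The F1 high ARA group was the progeny of parents fed a diet high in arachidonic acid (ARA), an n-6 fatty acid, and the F1 control group the progeny of parents fed a control diet low in ARA. Both F1 groups ate the control diet themselves, with sampling at 140 to 142 days post fertilization (DPF). The parental generation, F0 high ARA and F0 control, received its diets from 27 DPF and was mated at 97 DPF. It was sampled at 154 to 156 DPF, so that generation and age at sampling cannot be told apart. Whether the sampled F0 males had sired the F1 fish was not stated, and below the parents means these F0 groups. Each group had 6 libraries, each from a pool of 6 male livers of one tank, 24 libraries in all.

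The total count per library was 8636978 to 11800367 in F1 high ARA and 5144880 to 8493413 in F1 control, so that every F1 high ARA library was deeper than every F1 control library. It was 5973529 to 11646711 in F0 high ARA and 5608588 to 15659321 in F0 control. All 11 hepatocyte markers were detected, with a summed level of 148692 to 195242 CPM (counts per 1000000, scaled with TMM factors) in F1 high ARA, 179915 to 207438 in F1 control, 151408 to 195958 in F0 high ARA and 150850 to 213256 in F0 control. In pooled livers, fewer cells of a type and less RNA per cell cannot be told apart. In the F1 diet comparison 226 of 11690 tested genes were differentially expressed (edgeR, adjusted p under 0.05), or 1.93%. In the same comparison in F0 no gene of 12194 was, with 906 genes at an unadjusted p under 0.05 and 30 genes by DESeq2.

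The genes were not chosen by pathway. As background, the mammalian counterpart of ccdc90b is a mitochondrial protein related to a regulator of the mitochondrial calcium uniporter, and latexin, the product of LXN, inhibits metallocarboxypeptidases. SH3BGRL is a small protein with a thioredoxin-like fold, CRLF3 is an orphan cytokine receptor-like protein, intelectins such as ITLN1 are lectins that bind microbial glycans, and CFAP70 belongs to the proteins of cilia and flagella. Genes that lie close together on a chromosome tend to be inherited together, and positions and neighbours are therefore given for each gene. Genotypes were not measured.

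In F1, all 9 genes had libraries of the diet groups that did not overlap. Over all tested genes 2.34% had such groups, and since the rule used this contrast nothing is read from the comparison. The level was higher in F1 high ARA for 5 genes and lower for 4, where 0.932% of all tested genes were differentially expressed and higher and 1.0% differentially expressed and lower. All 9 had an absolute log2 fold change of at least 1, as had 3.18% of the tested genes. All 9 passed the minimum mean count of 10 in the 12 F1 libraries, but zgc:162154, ccdc90b and si:ch211-264f5.2 did so by little, with mean counts of 12.1, 11.9 and 10.6. These 3 genes passed only through the F1 high ARA libraries and therefore had to differ.

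By the smallness of their p-value in F1 the 9 genes held ranks 1 to 5, 10, 13, 16 and 23. The genes between them were not selected. The following are examples of them, chosen after their values were seen. At rank 7, zgc:171534 had a log2 fold change of -1.38 (SE 0.183). The fatty acid elongase elovl4b at rank 12 had one of -1.79 (SE 0.262), and dgkza at rank 11 one of 1.15 (SE 0.168). The last gene of the list by rank was crlf3, with a log2 fold change of -1.26 (SE 0.199).

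The working description of the genes as near on and off held for few of them. Only zgc:162154 and si:ch211-264f5.2 had 3 or fewer counts in all 6 libraries of their lower F1 group, and ccdc90b had so in 5 of 6. The other 6 genes were detected in every library of both diet groups. Their mean level in F1 high ARA was 3.28 times that of F1 control for si:dkey-254e1.1, 2.30 times for zgc:174904, 0.454 times for lxn, 0.420 times for crlf3, 0.380 times for sh3bgrl and 0.0755 times for si:ch211-194p6.12.

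**Figure D1:**
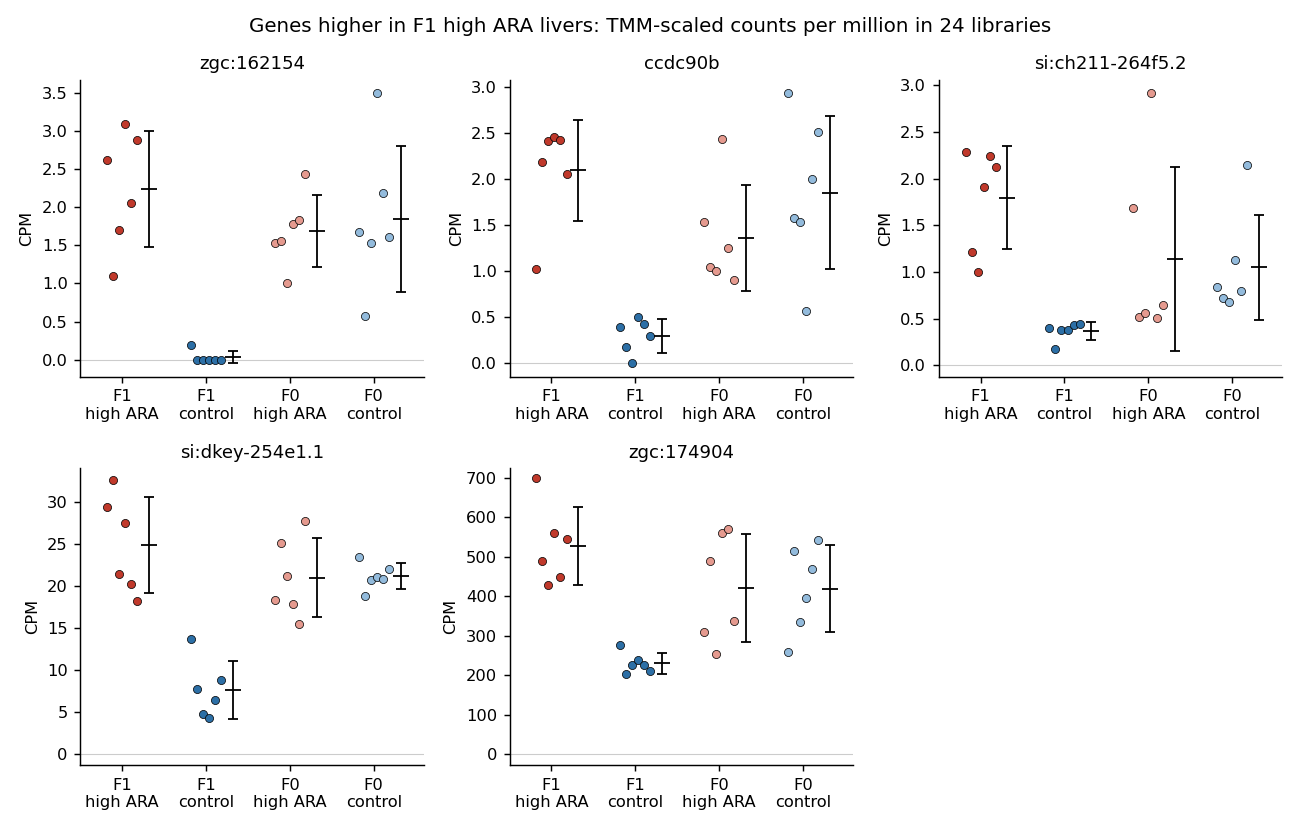
Level of the 5 genes that were higher in F1 high ARA, in TMM-scaled CPM on the y axis, for 4 groups of 6 libraries. Points are libraries and bars are the mean ± SD; in F1 control zgc:162154 had 1 count in all, and 4 of the 5 genes had every F1 control library below all 12 F0 libraries.

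The gene zgc:162154 (ENSDARG00000079170; GRCz10, chromosome 3, 9580750 to 9602302, minus strand, 10 annotated exons) was the nearest to an on and off pattern. Its role was not given in the sources used here. It had 144 counts in F1 high ARA and 1 count in F1 control, against 80 counts in F0 high ARA and 95 in F0 control. The level in F1 high ARA was 1.09 CPM in the lowest library, 2.34 in the median and 3.09 in the highest. In F1 control 5 of 6 libraries had no count and the remaining one, replicate 7, had 0.198 CPM.

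The F0 libraries of zgc:162154 resembled F1 high ARA. They held 1.00, 1.67 and 2.44 CPM (lowest, median, highest) in F0 high ARA and 0.573, 1.64 and 3.50 CPM in F0 control. All 6 F1 control libraries lay below all 12 F0 libraries, an order found for 0.462% of the genes tested in F1. Since the F1 counts chose the gene, nothing is read from this share. A count of 0 allowed a level of up to 0.375 to 0.642 CPM in these 5 libraries, at 3 counts per library. At the mean level of F1 high ARA, each F1 control library would have held 10.5 to 17.98 counts.

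The ratio of the zgc:162154 counts in F1 high ARA to those in F1 control, scaled to library size, was 82.4, with a 95% interval of 14.6 to 3277 that covers counting error only. Without F1 control replicate 7 it was at least 23.6, taking 3 counts over the group as the limit. The fitted log2 fold change of 5.71 (SE 0.603) depended on the prior count. In F0 the diet difference was -0.11 on the log2 scale (SE 0.356, 95% interval -0.81 to 0.58, edgeR adjusted p = 0.964), and the F0 groups overlapped.

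The next gene, ccdc90b (ENSDARG00000044626; chromosome 21, 22852284 to 22855519, minus strand, 9 annotated exons), also had its lowest level in F1 control. It held 1.03, 2.30 and 2.45 CPM (lowest, median, highest) in F1 high ARA, against 0, 0.346 and 0.499 CPM in F1 control. The F0 high ARA libraries held 0.899, 1.15 and 2.43 CPM, against 0.564, 1.78 and 2.93 CPM in F0 control. The F1 control libraries were thus again below every library of the parents, while F1 high ARA libraries lay within their range. The gap was narrow, with 0.499 CPM (4 counts) in F1 control replicate 10, against 0.564 CPM (5 counts) in F0 control replicate 10. The counts behind the F1 values were 132 in F1 high ARA and 11 in F1 control, a ratio of 6.87 after scaling (95% interval 3.72 to 14.1, counting error only). In F0 the log2 fold change was -0.45 (SE 0.357, 95% interval -1.15 to 0.25, edgeR adjusted p = 0.830).

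The gene si:ch211-264f5.2 (ENSDARG00000078547; chromosome 19, 5741274 to 5762585, minus strand, 7 annotated exons) has no role given in the sources used here. It held 1.00, 2.02 and 2.28 CPM (lowest, median, highest) in F1 high ARA, against 0.171, 0.386 and 0.445 CPM in F1 control. Among the parents, F0 high ARA held 0.502, 0.600 and 2.92 CPM, against 0.681, 0.817 and 2.15 CPM in F0 control. All F1 control libraries were below all F0 libraries, but here too the gap was narrow. The highest F1 control library had 0.445 CPM (3 counts), against 0.502 CPM (6 counts) in the lowest F0 library. The scaled ratio of F1 high ARA to F1 control was 5.02 (95% interval 2.82 to 9.71, counting error only).

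With a mean of 8.33 counts in the F0 libraries, si:ch211-264f5.2 was under the minimum for the F0 fit. An exact two-sided permutation test over 924 assignments gave p = 0.929 for the F0 diet difference, at -0.04 on the scale of log2(CPM + 0.5) (SE 0.352). The gene overlaps pdk2b, a pyruvate dehydrogenase kinase, on the opposite strand, and reads were counted without regard to strand. Reads that fell on exons of both genes were excluded. A read on exons of si:ch211-264f5.2 alone was counted for it whatever its strand. The level of pdk2b was 37.6 ± 16.7 CPM in F1 high ARA, against 52.9 ± 14.6 CPM in F1 control (mean ± SD of 6 libraries each), and its log2 fold change was -0.50 (edgeR adjusted p = 0.366).

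At 10096 bases from si:ch211-264f5.2 lies zgc:174904 (ENSDARG00000059049; chromosome 19, 5772681 to 5781451, minus strand, 6 annotated exons), by far the most abundant of the 9 genes. Its role was not given in the sources used here. In F1 high ARA it held 427, 517 and 698 CPM (lowest, median, highest), against 204, 225 and 277 CPM in F1 control. In F0 high ARA it held 253, 413 and 569 CPM, against 257, 432 and 543 CPM in F0 control. Of the F1 control libraries 5 of 6 lay below all F0 libraries, and 1 F1 high ARA library lay above them. The fitted log2 fold change was 1.20 (SE 0.126) in F1 and 0.00 in F0 (SE 0.232, 95% interval -0.45 to 0.46, edgeR adjusted p = 0.999). In F0 the level spanned a 2.25-fold range over the 12 libraries.

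The gene si:dkey-254e1.1 (ENSDARG00000058508; chromosome 3, 12036961 to 12087556, minus strand, 26 annotated exons), named cfap70 in the table of gene names, held 18.2, 24.4 and 32.5 CPM (lowest, median, highest) in F1 high ARA, against 4.24, 7.06 and 13.6 CPM in F1 control. The F0 high ARA libraries held 15.5, 19.8 and 27.8 CPM, against 18.8, 20.9 and 23.4 CPM in F0 control. All 6 F1 control libraries were below all F0 libraries and 2 F1 high ARA libraries above them. The log2 fold change was 1.72 (SE 0.250) in F1 and -0.01 in F0 (SE 0.134, 95% interval -0.27 to 0.25, edgeR adjusted p = 0.993). The F0 interval was the narrowest of the 8 genes in the F0 fit. The gene lies within the span of coro7 on the same strand, which held 74 counts over the 24 libraries.

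Of the 5 genes that were higher in F1 high ARA, 4 had all F1 control libraries below all F0 libraries. The exception was zgc:174904, where F1 control replicate 7 lay within the F0 range. Of these 4, zgc:162154, ccdc90b and si:ch211-264f5.2 had passed the count minimum only through F1 high ARA. Over all genes tested in F1, all F1 control libraries were below all F0 libraries for 0.462% and all F1 high ARA libraries above them for 1.43%, while among the 9 genes the numbers were 4 and 0. These positions share the F1 libraries with the contrast that chose the genes and are a description.

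**Figure D2:**
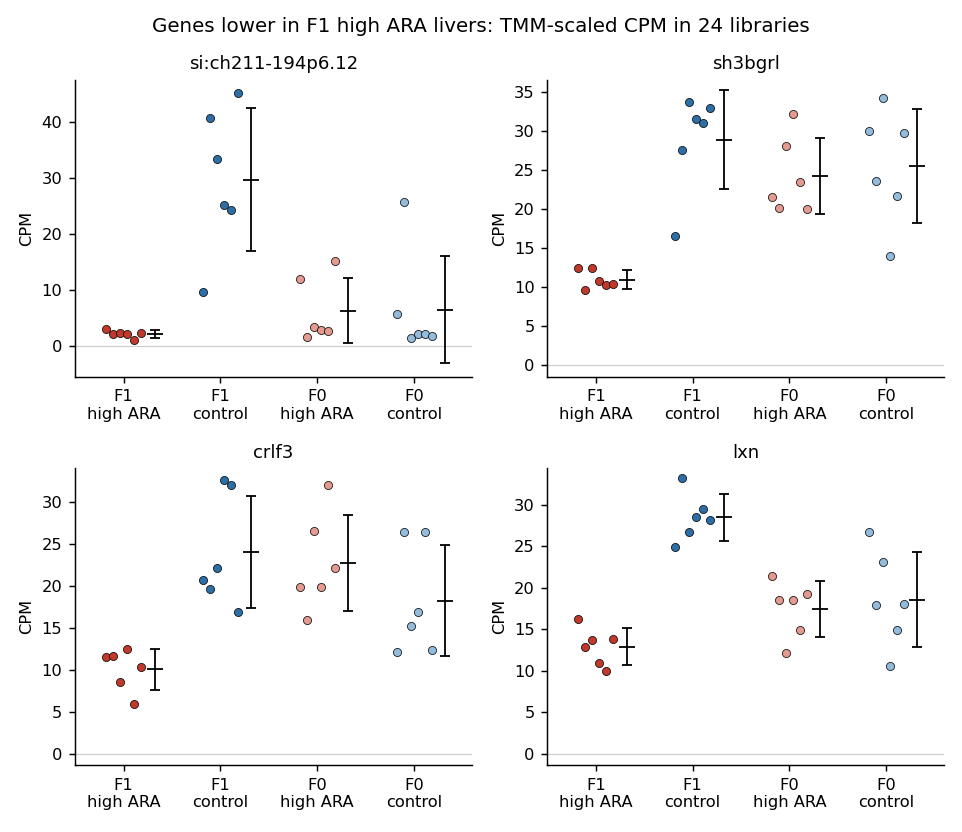
Level of the 4 genes that were lower in F1 high ARA, in TMM-scaled CPM on the y axis, for 4 groups of 6 libraries. Points are libraries and bars are the mean ± SD; sh3bgrl had all 6 F1 high ARA libraries below the 12 F0 libraries, and si:ch211-194p6.12 was high in F1 control and in single F0 libraries, among them F0 control replicate 8 at 25.7 CPM.

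Among the genes that were lower in F1 high ARA, sh3bgrl (ENSDARG00000058302; chromosome 14, 9099085 to 9114897, minus strand, 4 annotated exons) showed the reverse order. It held 9.59, 10.6 and 12.4 CPM (lowest, median, highest) in F1 high ARA, against 16.6, 31.3 and 33.7 CPM in F1 control. Among the parents, F0 high ARA held 20.0, 22.5 and 32.1 CPM, against 14.0, 26.6 and 34.2 CPM in F0 control. All 6 F1 high ARA libraries were below all 12 F0 libraries, and the F1 control libraries lay within the F0 range. The first order was found for 1.07% of the genes tested in F1. Since the F1 counts chose the gene, nothing is read from this share. The log2 fold change was -1.40 (SE 0.152) in F1 and -0.07 in F0 (SE 0.191, 95% interval -0.44 to 0.31, edgeR adjusted p = 0.962).

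The gene crlf3 (ENSDARG00000070261; chromosome 3, 35682532 to 35717606, plus strand, 10 annotated exons) held 6.01, 10.97 and 12.5 CPM (lowest, median, highest) in F1 high ARA, against 16.9, 21.5 and 32.7 CPM in F1 control. In F0 high ARA it held 15.9, 21.1 and 32.1 CPM, against 12.1, 16.1 and 26.5 CPM in F0 control. Here 5 of 6 F1 high ARA libraries were below all F0 libraries and 1 F1 control library was above them. The F0 diet difference of crlf3 was 0.31 (SE 0.229, 95% interval -0.13 to 0.76, edgeR adjusted p = 0.812). Its sign was opposite to that of the F1 log2 fold change of -1.26 (SE 0.199). The F0 estimates of ccdc90b (-0.45), zgc:162154 (-0.11) and si:dkey-254e1.1 (-0.01) were also opposite in sign to their F1 values. The F0 intervals of crlf3 and of these genes covered both signs. The remaining fitted genes had the same sign in F0 and F1. With 1 F0 library left out, the F0 difference of crlf3 was between 0.19 and 0.45.

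For lxn (ENSDARG00000043102; chromosome 15, 1220620 to 1238131, minus strand, 8 annotated exons) both F1 groups had libraries outside the range of the parents. It held 9.95, 13.3 and 16.3 CPM (lowest, median, highest) in F1 high ARA, against 24.9, 28.4 and 33.2 CPM in F1 control. The F0 high ARA libraries held 12.2, 18.5 and 21.4 CPM, against 10.6, 18.03 and 26.8 CPM in F0 control. Of the F1 control libraries 4 of 6 were above all F0 libraries, and of the F1 high ARA libraries 1 was below them. The log2 fold change was -1.15 (SE 0.124) in F1 and -0.09 in F0 (SE 0.198, 95% interval -0.47 to 0.30, edgeR adjusted p = 0.948).

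The lxn gene overlaps gfm1, a mitochondrial elongation factor, on the opposite strand. The level of gfm1 was 33.4 ± 6.90 CPM in F1 high ARA, against 24.4 ± 5.05 CPM in F1 control (SD, n = 6 each), so that its estimate had the opposite sign to that of lxn, with a log2 fold change of 0.45 (SE 0.155, edgeR adjusted p = 0.130).

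The gene si:ch211-194p6.12 (ENSDARG00000095082; chromosome 7, 32880482 to 32904971, plus strand, 14 annotated exons), named ITLN1 in the table of gene names, had the widest range of the 9 over the F0 libraries. It held 1.08, 2.34 and 3.08 CPM (lowest, median, highest) in F1 high ARA, against 9.69, 29.3 and 45.1 CPM in F1 control. Among the parents, F0 high ARA held 1.73, 3.19 and 15.3 CPM, against 1.53, 2.22 and 25.7 CPM in F0 control. Most F0 libraries were thus at the level of F1 high ARA, and 3 of 6 F1 control libraries were above all of them. Single F0 libraries were high, with 359 counts in F0 control replicate 8 and 119 and 79 counts in F0 high ARA replicates 18 and 13. Over the 12 F0 libraries the level spanned a 16.8-fold range.

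The log2 fold change of si:ch211-194p6.12 was -3.74 (SE 0.344) in F1. In F0 it was -0.11 with a wide 95% interval of -1.71 to 1.49 (SE 0.816, edgeR adjusted p = 0.989). Differences within that interval were not excluded by the F0 values. Without F0 control replicate 8 the F0 estimate was 1.19 (edgeR adjusted p = 0.718).

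The Ensembl model of this locus covers what RefSeq annotates as separate genes, si:ch211-194p6.10 and si:ch211-194p6.12, which have rows of their own in the RefSeq counts. The RefSeq row of si:ch211-194p6.12 had 0.806 ± 0.528 CPM in F1 high ARA, 19.0 ± 11.2 in F1 control, 3.34 ± 4.12 in F0 high ARA and 3.87 ± 6.62 in F0 control (SD, n = 6 each). The row of si:ch211-194p6.10 had 2.35 ± 0.772 CPM in F1 high ARA, 12.7 ± 4.51 in F1 control, 4.795 ± 1.74 in F0 high ARA and 4.26 ± 3.38 in F0 control. Both rows were lower in F1 high ARA, with log2 fold changes of -4.58 (SE 0.577) and -2.45 (SE 0.293). The rows are not parts of the Ensembl count, since together they held 180 counts in F1 high ARA, where the Ensembl model had 138, and 1078 counts in F1 control, where it had 1083.

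**Figure D3:**
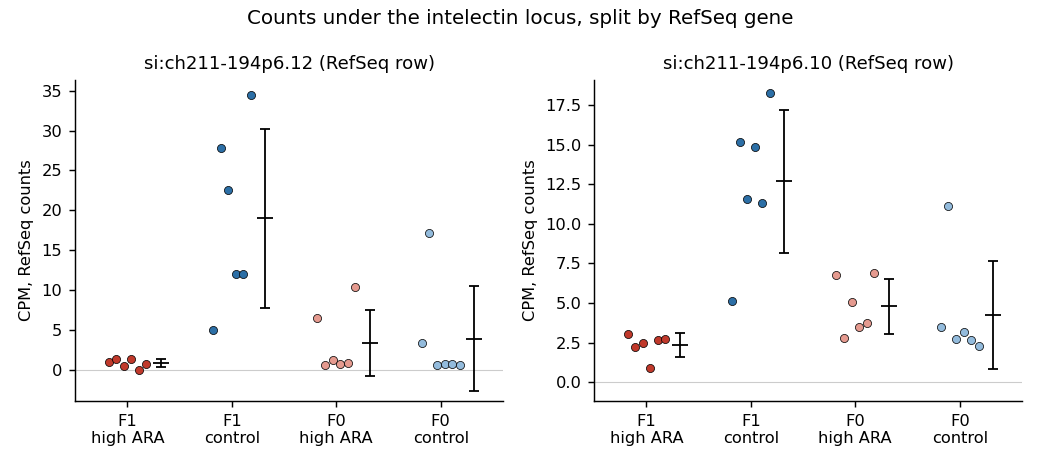
RefSeq counts at the intelectin locus, in TMM-scaled CPM on the y axis, for si:ch211-194p6.12 (left) and si:ch211-194p6.10 (right) in 4 groups of 6 libraries, with points for libraries and bars for the mean ± SD. Both genes were low in F1 high ARA and higher in F1 control, and F0 control replicate 8 stands above the other F0 libraries in both panels.

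Intelectins are known from the gut in mammals, and genes of enterocytes varied between these libraries. Of the 10 enterocyte markers all were detected and 8 were tested in F1. None of the 8 was differentially expressed by edgeR or DESeq2, their median log2 fold change was -2.13, and 6 of 8 had an unadjusted p under 0.05, against a median of 0.00 and 19.8% of all tested genes. Their summed level was 2708 to 3753 CPM in F1 high ARA, 2492 to 4791 in F1 control, 2978 to 4274 in F0 high ARA and 3163 to 6223 in F0 control. Most of it came from rbp2a. Without that gene, a choice made after seeing the data, the sum was 60.8 to 91.6 CPM in F1 high ARA, 28.5 to 626 in F1 control, 18.6 to 867 in F0 high ARA and 23.8 to 1626 in F0 control.

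Library by library, the sum of the other 9 markers and the level of si:ch211-194p6.12 stood as follows. The 6 F1 high ARA libraries had marker sums of 60.8 to 91.6 CPM and 1.08 to 3.08 CPM of the gene. In F1 control the marker sum was 626, 455 and 491 CPM in replicates 7, 8 and 9, where the gene had 9.69, 40.6 and 33.3 CPM. It was 35.7, 37.0 and 28.5 CPM in replicates 10, 11 and 12, where the gene had 25.2, 24.4 and 45.1 CPM. The F1 groups of this gene, which chose it, did not overlap. Its order between the groups was thus fixed whatever the marker sum, and nothing is read from it. Of the 3 F0 libraries with the most of the gene, F0 high ARA replicates 13 and 18 had marker sums of 867 and 18.6 CPM, and F0 control replicate 8 had 33.9 CPM. The part of gut transcripts in the result was not tested.

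**Figure D4:**
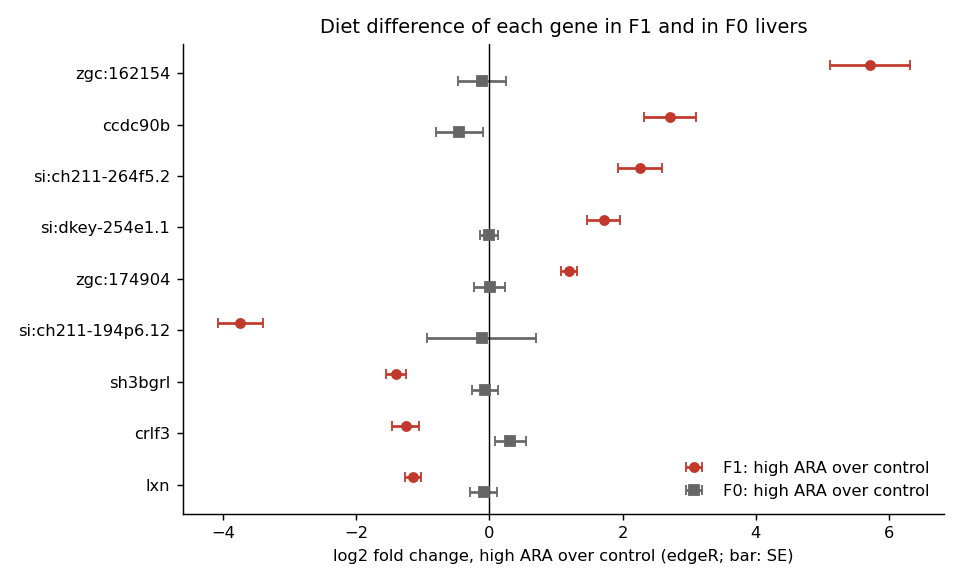
Log2 fold change of high ARA over control (x axis, edgeR, bars: SE) for each gene, in F1 livers (circles) and F0 livers (squares); si:ch211-264f5.2 was under the count minimum in F0. The F1 values, which chose the genes, range from -3.74 to 5.71, and the F0 values from -0.45 to 0.31.

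In the parents, none of the 8 genes tested was differentially expressed between the diets by edgeR or DESeq2, where the share of all genes was 0.0% by edgeR. None of the 8 had an unadjusted p under 0.05, against 7.43% of all other genes tested in F0. With so few genes, nothing is read from this count. The F0 groups of all 9 genes overlapped, against 0.517% of tested genes with F0 groups that did not. The F0 estimates were between -0.45 and 0.31 on the log2 scale. The F0 intervals of zgc:174904, lxn, sh3bgrl and si:dkey-254e1.1 lay between -0.47 and 0.46, whereas those of ccdc90b and si:ch211-194p6.12 reached beyond -1. The difference between the F1 and the F0 diet effect was not tested, because F1 had chosen the genes.

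Set against their own parents' group, the F1 values gave each gene another profile. In the high ARA lineage, the log2 fold change of F1 over F0 was -1.15 (SE 0.137) for sh3bgrl, -1.19 (SE 0.190) for crlf3 and -1.51 (SE 0.515) for si:ch211-194p6.12, and between -0.43 and 0.73 for the remaining 6 genes. In the control lineage it was -1.50 (SE 0.224) for si:dkey-254e1.1, -0.88 (SE 0.162) for zgc:174904, 0.61 (SE 0.176) for lxn and 2.08 (SE 0.715) for si:ch211-194p6.12. It was 0.17 (SE 0.206) for sh3bgrl and 0.37 (SE 0.235) for crlf3. The genes zgc:162154, ccdc90b and si:ch211-264f5.2 were under the count minimum there, and their F1 control mean was 0.0186, 0.186 and 0.334 times the mean of all F0 libraries. Over all genes 16.9% were differentially expressed in the high ARA lineage and 2.34% in the control lineage. These contrasts share the F1 libraries with the selection and are given without a test.

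The usual level of the genes differed widely. In F0 livers, per kilobase of annotated transcript, zgc:174904 had 220 CPM, above 97.2% of the genes tested in F0. It was followed by lxn at 17.9, sh3bgrl at 6.81, si:dkey-254e1.1 at 6.29 and crlf3 at 6.24 CPM per kilobase. The levels of si:ch211-194p6.12, ccdc90b, zgc:162154 and si:ch211-264f5.2 were 2.30, 1.099, 0.941 and 0.568 CPM per kilobase, and the last of these was above 6.92% of the tested genes. The genes nearest to an on and off pattern in F1 were thus among the weakly expressed genes of the liver also in F0.

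The 9 genes lie on 6 chromosomes. Chromosome 3 holds zgc:162154, si:dkey-254e1.1 and crlf3, with 2.43 Mb between the first pair and 23.6 Mb from there to crlf3. Leaving out the 9 genes themselves, 4.64% of the genes tested on chromosome 3 were differentially expressed in F1 and 4.04% of those on chromosome 14, which holds sh3bgrl, against 1.86% of all tested genes. On chromosome 19, which holds zgc:174904 and si:ch211-264f5.2, it was 1 of 458 genes, or 0.218%. The share was 2.03% on chromosome 7, 1.58% on chromosome 15 and 0.893% on chromosome 21. Within groups, the levels of the close pair on chromosome 19 were weakly correlated over the 24 libraries (Pearson's r = 0.31 after subtracting group means). Over all 36 pairs of the 9 genes r was between -0.46 and 0.49. All genes share the same libraries and their depth, and these values are a description.

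**Figure D5:**
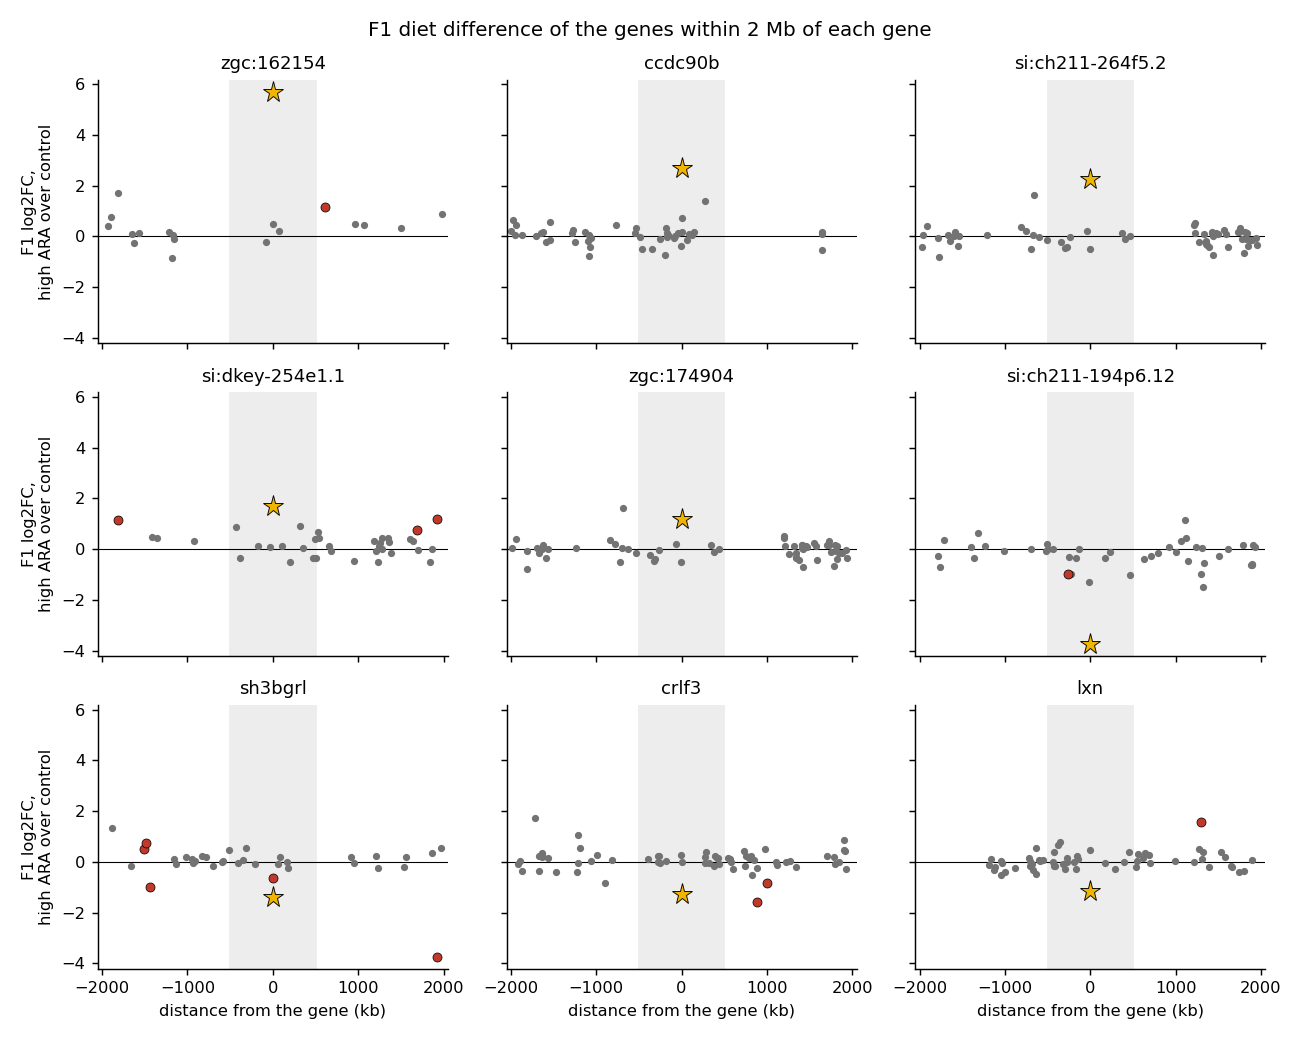
F1 log2 fold change of high ARA over control (y axis) of tested genes within 2000 kb of each gene, by distance in kb (x axis). Stars are the genes themselves, large red points are differentially expressed neighbours, grey points are other tested genes, and the shaded band marks 500 kb; in that band 2 of 98 neighbours were differentially expressed.

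Within 500 kb, the neighbours of the genes changed about as often as other genes. In that distance 98 other genes were tested in F1. Of them 2 were differentially expressed, or 2.04%, against 1.86% of all other tested genes. The median absolute log2 fold change of these 98 genes was 0.18, against 0.20 for all other tested genes, and 21.4% had an unadjusted p under 0.05, against 19.7%. In F0 3 of 93 neighbours, or 3.23%, had an unadjusted p under 0.05, against 7.43% of all other tested genes. Another differentially expressed gene within 500 kb was found for 4 of the 9 genes, or 44.4%, against 34.6% of the other 217 differentially expressed genes and 17.7% of the genes that were not. For zgc:174904 and si:ch211-264f5.2 that gene was the other of the pair, and without counting the 9 genes as neighbours of each other the number was 2 of 9.

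The 2 differentially expressed neighbours outside the 9 genes moved in the direction of their partner. The gene fb06f03 starts 599 bases from sh3bgrl on the opposite strand and had 13.9 ± 2.36 CPM in F1 high ARA, against 21.8 ± 4.14 CPM in F1 control (mean ± SD of 6 libraries each), and its log2 fold change was -0.65 (SE 0.146, edgeR adjusted p = 0.0354). Its mean level in F0 high ARA was 21.2 CPM, against 22.9 CPM in F0 control (edgeR adjusted p = 0.850). The gene ano5b, a member of the anoctamin family, lies 255964 bases from si:ch211-194p6.12 and had 14.4 ± 4.19 CPM in F1 high ARA, against 28.5 ± 10.98 CPM in F1 control, with a log2 fold change of -0.99 (SE 0.235, edgeR adjusted p = 0.0466). Its mean level in F0 high ARA was 28.6 CPM, against 29.0 CPM in F0 control (edgeR adjusted p = 0.989). In both cases F1 high ARA was the group farther from the F0 means, as it was for sh3bgrl. The pattern of ano5b differed in this from that of si:ch211-194p6.12, where most F0 libraries were at the level of F1 high ARA. The mean of si:ch211-194p6.12 was 4.60 times the mean of all F0 libraries in F1 control and 0.347 times in F1 high ARA.

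Around si:ch211-194p6.12, picked out after its values were seen, 10 of 11 tested genes within 500 kb had a negative log2 fold change, with a median of -0.33. Of these 11, 6 had an unadjusted p under 0.05, against 19.7% of all other tested genes. Neighbours had the sign of the gene in 11 of 20 cases for ccdc90b, 10 of 19 for lxn and 6 of 17 for crlf3. It was 6 of 9 for sh3bgrl, 7 of 10 for si:dkey-254e1.1, 2 of 3 for zgc:162154, and 3 of 9 for zgc:174904 and for si:ch211-264f5.2. Around zgc:174904 and si:ch211-264f5.2 none of the 9 tested neighbours had an unadjusted p under 0.05, although the 2 genes themselves lie 10096 bases apart. One of these neighbours, pdk2b, overlaps si:ch211-264f5.2 and reaches into the gap between the pair. Its log2 fold change of -0.50 (edgeR adjusted p = 0.366) was opposite in sign to those of both genes. Further out, within 2000 kb, 12 of 359 genes were differentially expressed, or 3.34%, against 1.86% of all other tested genes. This difference was not tested. Of the 12, 9 had the sign of the gene they lie near and 3 the opposite one. Opposite in sign were wdr53 near lxn, with a log2 fold change of 1.56, and ube2d2 and zgc:110843 near sh3bgrl, with 0.49 and 0.76. Among the 9 with the same sign, and chosen after its values were seen, si:ch211-67o16.6p lies 1917 kb from sh3bgrl. It had 0.222 ± 0.226 CPM in F1 high ARA, against 3.01 ± 1.44 CPM in F1 control, whereas the F0 means were 2.04 CPM for high ARA and 2.17 CPM for control, with a log2 fold change of -3.75 in F1 (SE 0.559, edgeR adjusted p = 0.00465). Between zgc:162154 and si:dkey-254e1.1, BX539325.1, also chosen after its values were seen, was higher in F1 high ARA, at 6.62 ± 1.38 CPM, than in F1 control, at 3.01 ± 0.822 CPM (log2 fold change 1.14, edgeR adjusted p = 0.0136), and F1 control was again the group farther from the F0 means of 10.8 CPM for high ARA and 9.72 CPM for control.

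The genes most alike to each of the 9, by Pearson's r over the 24 libraries after subtracting group means, lay on other chromosomes than the gene itself, except ba1l and grna.1. For sh3bgrl they were ppt1 (r = 0.85), a lysosomal thioesterase, and aktip (r = 0.81). For si:dkey-254e1.1 they were ba1l (r = 0.79), a globin, and mzt2b (r = 0.75), for ccdc90b nrros (r = 0.77) and dynlt3 (r = 0.70), and for zgc:174904 AL928650.3 (r = 0.76) and cldn15lb (r = 0.74). For lxn they were mgat5 (r = 0.75) and rgrb (r = 0.72), for crlf3 the row ENSDARG00000008906 (r = 0.70) and zgc:162255 (r = 0.67), and for zgc:162154 si:dkey-269o24.1 (r = 0.69) and arnt (r = 0.68). For si:ch211-194p6.12 they were anapc15 (r = 0.68) and saraf (r = 0.66), and for si:ch211-264f5.2 grna.1 (r = 0.66) and si:dkey-7i4.24 (r = 0.65). Each was the highest of a large number of values per gene, so these names are a description.

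Of 4 lists of genes with related roles, 1 held a differentially expressed gene in F1. None of the 6 tested genes of the mitochondrial calcium uniporter list was called by edgeR or DESeq2, 1 had an unadjusted p under 0.05, and their median log2 fold change was -0.02. The pore-forming subunit mcu had 2.30 ± 0.786 CPM in F1 high ARA, against 1.52 ± 0.547 CPM in F1 control (edgeR adjusted p = 0.258). Neither of the 2 tested relatives of sh3bgrl was called by edgeR or DESeq2 or had an unadjusted p under 0.05. The level of sh3bgrl2 was 40.0 ± 5.51 CPM in F1 high ARA, against 39.8 ± 1.34 CPM in F1 control, and that of sh3bgrl3 was 111 ± 18.5 CPM in F1 high ARA, against 108 ± 18.1 CPM in F1 control.

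Of 7 tested carboxypeptidases of the A and B type, targets of latexin in mammals, none was called by edgeR or DESeq2. Of the 7, 1 had an unadjusted p under 0.05, or 14.3%, against 19.8% of all tested genes. The median log2 fold change of the carboxypeptidases was -0.64. Most of them are enzymes of the exocrine pancreas, whose markers had a summed level of 1463 to 3594 CPM in F1 high ARA, against 861 to 6939 CPM in F1 control. Of 15 tested genes of the JAK, STAT and SOCS families, which signal from cytokine receptors, 1 was differentially expressed in F1 by edgeR and by DESeq2, or 6.67%. The share of all tested genes was 1.93% by edgeR and 5.22% by DESeq2. An unadjusted p under 0.05 was found for 6 of the 15, or 40.0%, against 19.8% of all tested genes, and their median log2 fold change was 0.10. The differentially expressed one was jak1, a receptor-bound kinase, at 81.9 ± 7.61 CPM in F1 high ARA, against 59.5 ± 5.66 CPM in F1 control (log2 fold change 0.46, SE 0.0978, edgeR adjusted p = 0.0276). In F0 no gene of these 4 lists was called by edgeR or DESeq2. There an unadjusted p under 0.05 was found for 1 of 6 tested genes of the uniporter list and 1 of 2 of the SH3BGR list. It was found for 1 of 15 of the JAK, STAT and SOCS list, against 7.43% of all other genes tested in F0. With so few genes, nothing is read from these F0 counts.

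The values did not depend on the annotation for most of the genes. The RefSeq counts of ccdc90b, zgc:174904 and si:dkey-254e1.1 equalled the Ensembl counts in all 24 libraries. For zgc:162154, lxn, sh3bgrl, crlf3 and si:ch211-264f5.2 the RefSeq total was 92.8% to 108% of the Ensembl total. Only si:ch211-194p6.12, with 55.3%, differed by more.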

How the data were processed

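Per the labels and the file headers, the authors sequenced stranded single-end libraries on a NextSeq 500, checked them with FastQC 0.11.5, mapped reads to GRCz10 with HISAT2 (version not given in the sources used here) and deposited raw counts per gene from featureCounts 1.5.0-p3, for Ensembl release 85 and for RefSeq. Reads with several mappings or genes were excluded. Of 36 count columns per table, 12 belong to samples not used here. Symbols were assigned to 27794 of 32105 Ensembl genes.

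Here, Ensembl counts were compared with edgeR 4.0.16 (R 4.3.3): TMM factors, quasi-likelihood F test with robust estimation, each comparison on its 12 libraries, a minimum mean count of 10, Benjamini-Hochberg adjustment, threshold 0.05. The SE is the absolute log2 fold change over the square root of F. The 95% intervals of log2 fold changes are 1.96 SE wide on each side, a normal approximation that is somewhat narrow for 12 libraries. Permutation tests used scipy 1.17.1. The code was tested on simulated data. Alternatives were DESeq2 1.42.0, RLE factors, library totals, other count minimums, one fit of all libraries, RefSeq counts, the replicate number as a block, other neighbour distances and each library left out. The 9 genes and the lists of related genes and markers were chosen with earlier results of these data known. Named beside them were overlapping genes, differentially expressed neighbours within 500 kb and the 2 most correlated genes of each.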

Additional observations from a re-analysis of the deposited data

Results flagged for a closer look

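For each of the 9 genes and 4 groups, 36 in all, the lowest and the highest library were compared with the other 5. Dixon's 95% critical share of a group's range is exceeded by chance in about 1 of 20 groups of normally distributed values, which low counts are not. In 6 groups 1 library stood apart by more than that share. They were zgc:162154 in F1 control replicate 7 (0.198 CPM, the only library of its group with a count), ccdc90b in F1 high ARA replicate 13 (1.03 CPM, the lowest), sh3bgrl in F1 control replicate 7 (16.6 CPM, the lowest), si:ch211-264f5.2 in F1 control replicate 8 (0.171 CPM, the lowest) and in F0 control replicate 12 (2.15 CPM, the highest), and si:ch211-194p6.12 in F0 control replicate 8 (25.7 CPM, the highest). The values of zgc:162154 and si:ch211-264f5.2 in F1 control rest on 1 count each. With no count in the other 5 libraries, zgc:162154 in F1 control was flagged by construction. The number of flagged groups is therefore not read against the rate of chance.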

How the results depend on the processing

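In F1, each of the 9 genes kept its direction in every alternative that could test it. Their F1 groups, which chose them, did not overlap, so this was largely fixed in advance and nothing is read from it. The fitted value of zgc:162154 was 7.27 without F1 control replicate 7. The number of genes differentially expressed in F1, 226, was 610 with DESeq2, 147 with a mean count of at least 50, 348 in one fit of all libraries and 80 to 289 with one library left out, falling to 96, 141 and 87 without F1 high ARA replicates 15, 16 and 17 and to 136, 80, 115 and 91 without F1 control replicates 7, 8, 11 and 12. With library totals in place of TMM factors the median log2 fold change moved to 0.13 and the split from 109 higher and 117 lower genes to 171 and 65. In F0 the number, 0, was 30 with DESeq2 and 0 to 2 with one library left out, 2 without F0 high ARA replicate 17. In the control lineage, F1 over F0, it was 275 and became 614 with DESeq2 and 175 with the replicate block; in the high ARA lineage it was 2058 and became 1549 with that block. No label says that equal replicate numbers of F1 and F0 pair the samples. The deviations of same-numbered libraries correlated between -0.36 and 0.27, over 0.1 for 4 of 6 pairs in the control lineage and for none in the high ARA lineage, and 1 of 12 libraries correlated best with its own number. No paired analysis was possible for the diet comparisons because their groups share no replicate numbers. The share of differentially expressed neighbours was 3.34% within 2000 kb and 2.04% within 500 kb, against 1.86% of all other tested genes. No F0 difference was called in any alternative, at adjusted p-values from 0.644 to 1.00; the lowest unadjusted p was 0.0516 for ccdc90b and 0.0633 for crlf3. Estimates near zero changed sign: zgc:174904, at 0.00371, was -0.00377 without a count minimum, -0.00115 with a mean count of at least 50 and -0.00409 in RefSeq counts. With one library left out, F0 differences ranged from -0.33 to 0.19 for zgc:162154, -0.68 to -0.26 for ccdc90b (-0.68 without F0 high ARA replicate 16, -0.26 without F0 control replicate 7), 0.19 to 0.45 for crlf3 (0.19 without F0 high ARA replicate 17), -0.20 to 0.049 for lxn, -0.19 to 0.030 for sh3bgrl, -0.10 to 0.11 for zgc:174904, -0.58 to 1.19 for si:ch211-194p6.12 and -0.11 to 0.068 for si:dkey-254e1.1. The values of the 3 weakest genes in F1 control rest on at most 4 counts per library. The cause of these shifts was not tested.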
